A study of Rattus norvegicus with 151 samples.

Results

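The genes described here are 35 genes of mitosis and the G2/M transition, listed by function with earlier results of these data known. The shares called among these genes are therefore descriptions and not an independent test. A probe set on the array carried the symbol of 32 of them, out of 14218 genes named on the array, and Tpx2, Nek2 and Ndc80 had none here. Where a gene had several probe sets, the one with the highest mean in the tissue stood for it. The 32 genes were measured in both organs, liver and kidney, of male rats of the Harlan Sprague-Dawley stock, aged 6 to 8 weeks, which had been gavaged on 5 days with a chemical of the West Virginia spill. The chemicals were 4-methylcyclohexanemethanol (MCHM), its technical mixture, mostly MCHM itself (crude MCHM), and propylene glycol phenyl ether (PPH).

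Each chemical had its own vehicle group, which received corn oil alone (0 mg/kg). The 6 doses of MCHM, and likewise of crude MCHM, ran in mg/kg from 0.1 over 1, 10 and 100 to 300 and then 500. PPH had 5 doses, which were 1, 10, 100, 500 and lastly 1000 mg/kg. Vehicle groups in liver had 5 arrays for MCHM, 4 for crude MCHM and 5 for PPH, and dosed groups 4, except 3 at 0.1 mg/kg crude MCHM. Vehicle groups in kidney had 5, 3 and 5. The dosed kidney groups had 4, except 3 for MCHM at 0.1 mg/kg, 3 for PPH at 500 mg/kg, 3 at 300 and at 500 mg/kg crude MCHM, and 2 at each lower dose of crude MCHM. The replicate number of an array, which liver and kidney arrays share, was read as the number of the rat. The p-values measure the spread between these arrays.

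Values are log2 intensities as deposited. The analysis used 150 of 151 arrays (81 of liver, 69 of kidney), with medians between 5.22 and 5.38, and small groups set the precision. The kidney array of MCHM 0.1 mg/kg replicate 13 was left out because its values stood 1 position away from their probe sets. Tissue markers matched the labels, with the albumin transcript Alb between 14.62 and 14.85 in liver and the tubular transporter Slc34a1 between 12.80 and 13.81 in kidney. In 2 kidney arrays Alb stood apart, at 11.06 in 1 array of 1 mg/kg crude MCHM and at 10.19 in the MCHM vehicle array of rat 4, against at most 7.28 in the others. The first was 1 of 2 arrays in its group. With it 0% of all genes were called at 1 mg/kg crude MCHM and in the kidney trend of that chemical. A fit without it leaves 1 array in the group, so it cannot decide what that array changes. What leaving out rat 4 changes is given with the kidney MCHM results.

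Entry into mitosis is driven by the kinase CDK1 bound to cyclins A and B. Spindle kinases and motors then arrange the chromosomes, the spindle checkpoint holds back their separation, and the ubiquitin ligase APC/C with Cdc20 ends mitosis by marking cyclins and securin for destruction. Most cells of the adult liver and kidney are out of the cell cycle, so most of these transcripts are usually taken to come from a small share of cells. That share was not measured here. In such bulk tissue fewer cycling cells and less RNA per cycling cell cannot be told apart. The promoters of many of these genes hold CCAAT boxes, bound by NF-Y, and the cell cycle genes homology region (CHR), an element bound by the DREAM complex, which holds these genes down in resting cells, and by MuvB with B-MYB and FOXM1, which switch them on late in the cycle.

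The promoters of the members called in liver at a highest dose are shown so that these elements can be seen where they occur. They are the last 200 bases before the RefSeq transcription start on build GRCr8, read in the direction of the gene, with CCAAT boxes (CCAAT, or ATTGG on the other strand) and CHR elements (TTTGAA or TTCGAA, or TTCAAA or TTCGAA on the other strand) in capitals. Ccna2, also called in liver, is named only.
Cdk1, chr20:19265093-19265292, + strand: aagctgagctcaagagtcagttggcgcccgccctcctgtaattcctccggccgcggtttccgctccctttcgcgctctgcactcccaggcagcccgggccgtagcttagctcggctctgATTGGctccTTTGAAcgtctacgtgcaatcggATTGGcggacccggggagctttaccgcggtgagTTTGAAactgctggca
Cdkn3, chr15:22502186-22502385, + strand: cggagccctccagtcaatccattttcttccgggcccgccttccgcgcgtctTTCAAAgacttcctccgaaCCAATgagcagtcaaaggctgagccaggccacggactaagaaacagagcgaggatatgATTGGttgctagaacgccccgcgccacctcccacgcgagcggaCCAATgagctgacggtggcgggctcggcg
Nusap1, chr3:127057095-127057294, + strand: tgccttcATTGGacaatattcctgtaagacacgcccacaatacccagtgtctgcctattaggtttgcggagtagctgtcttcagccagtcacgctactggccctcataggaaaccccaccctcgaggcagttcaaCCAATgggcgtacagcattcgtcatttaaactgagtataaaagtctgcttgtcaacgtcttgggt
Ube2t, chr13:48954966-48955165, + strand: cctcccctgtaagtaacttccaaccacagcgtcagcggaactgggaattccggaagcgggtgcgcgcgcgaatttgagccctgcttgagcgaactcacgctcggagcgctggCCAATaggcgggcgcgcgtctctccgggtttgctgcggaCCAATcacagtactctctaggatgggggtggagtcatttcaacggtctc

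The Cdk1 promoter had CHR elements 72 and 16 bases before the start and CCAAT boxes at 81 and 49 bases, with a further CCAAT box at 210 bases outside the stretch shown. The Cdkn3 promoter had a CHR element at 149 bases and CCAAT boxes at 130, 72 and 29 bases. Nusap1 and Ube2t each had 2 CCAAT boxes and no CHR letters in this window. RefSeq gave a promoter window, 250 bases before to 50 bases after the start, for 28 of the 35 members. A CHR element was in 13 of the 28 (46.4%), against 16.5% of 19005 protein-coding genes, and a CCAAT box in 22 (78.6%), against 35.5%. The 2 motifs can share 1 base where they adjoin. At least 2 CCAAT boxes were in 18 members (64.3%, against 10.9%), and both motifs together in 12 (42.9%, against 6.13%). These matches are letters in a window and were not tested for binding.

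The members fell most in the kidneys of rats given 1000 mg/kg PPH. There 26 of the 30 members tested fell and none rose, where 2.03% of all 11264 tested genes were called. A gene was called when limma's p, adjusted by Benjamini and Hochberg's method over all tested genes, was under 0.05. Their median change was −1.08, and their largest fall was that of the cyclin A2 gene Ccna2 (−1.97, 3.93-fold). In 28 of the 30, all 4 dosed kidneys lay below all 5 vehicle kidneys, as was so for 3.64% of all tested genes. The dosed mean was under the floor for testing in 9 members and the vehicle mean in 1. The mean of 31 members on each array went from between 5.95 and 6.51 in the vehicle kidneys to between 4.89 and 5.33 at 1000 mg/kg, and the lowest kidney array outside this group was at 5.39.

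**Figure D1:**
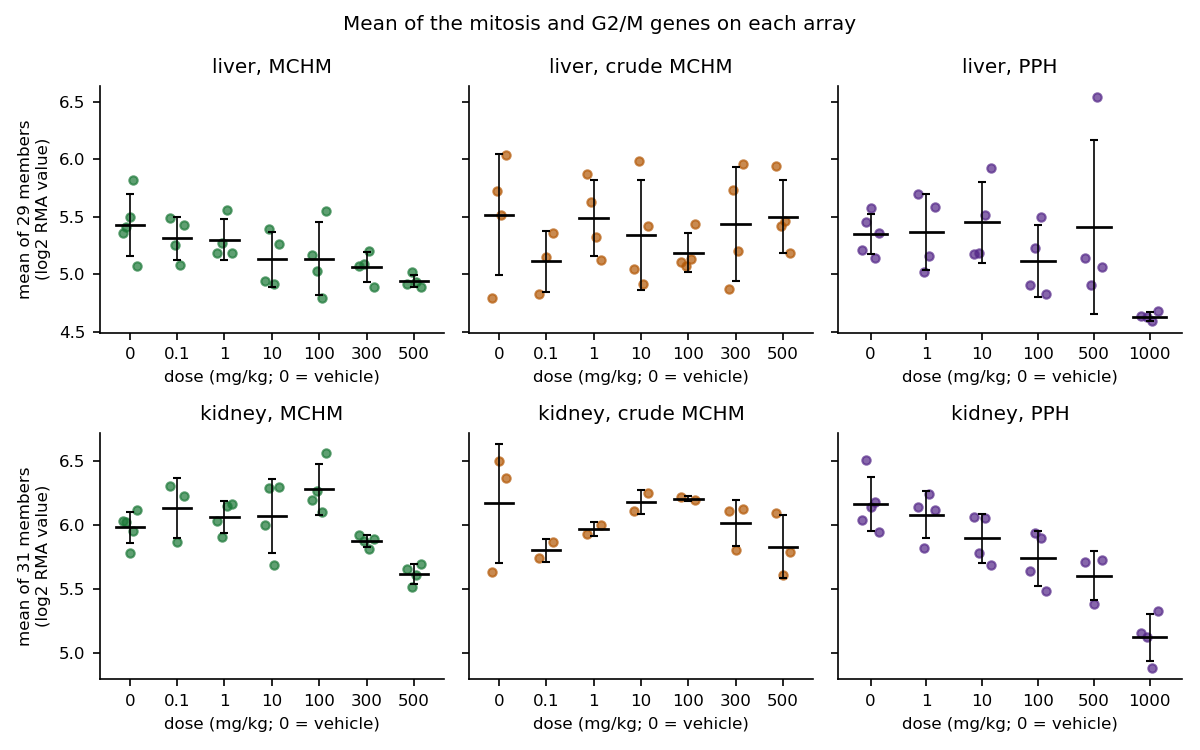
Mean log2 value of the members on each array (29 members in liver, 31 in kidney) by dose in mg/kg, with points for arrays, a bar for the group mean and error bars for the SD. The 4 kidneys at 1000 mg/kg PPH sit between 4.89 and 5.33, below every other kidney array, and 1 liver array of 500 mg/kg PPH sits at 6.54.

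CDK1, its cyclins and its partners all fell in these kidneys, 6 of 6 called. Cdk1, the kinase of mitotic entry, was at 7.10, 7.53, 7.28, 7.81 and 6.99 in the vehicle kidneys and at 6.09, 5.41, 5.72 and 5.69 at 1000 mg/kg. The groups did not overlap, and the change was −1.61 (SE 0.20, adjusted p 4.85e-05). Ccna2, whose product pairs with CDK1 and CDK2, was at 5.12, 5.90, 5.79, 6.16 and 5.27 in vehicle and at 3.98, 3.12, 4.03 and 3.57 at the dose. Every dosed kidney was under 4.66, the level at the 40th percentile of all kidney values that served as the floor for testing, so its change rests on dim dosed values (−1.97, SE 0.22, adjusted p 2.7e-05). Ccnb2, which encodes cyclin B2, was at 6.77, 6.69, 6.80, 6.66 and 6.33 in vehicle and at 5.48, 4.52, 5.00 and 5.14 at the dose (−1.61, SE 0.19, adjusted p 4.72e-05). The lowest vehicle kidney for Ccnb2 still lay above the dosed range. Cks2, a small protein that binds CDK1, was at 7.45, 7.47, 7.67, 8.09 and 7.24 in vehicle and at 6.36, 6.02, 6.17 and 6.26 at the dose (−1.38, SE 0.15, adjusted p 2.53e-05). Cyclin B1 (Ccnb1) changed by −1.10, and the phosphatase gene Cdkn3, whose product acts on cyclin-dependent kinases, by −1.92.

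The genes grouped under the chromosomal passenger complex, the spindle midzone and cytokinesis fell in 6 of 7 cases, with a median of −1.24. Cdca3 was counted in this group, although it is not known as a gene of these structures, and the median is its change. Ect2, the exchange factor that sets the cleavage furrow, had the smallest adjusted p of all tested genes (2.17e-05). It was at 7.37, 7.41, 7.51, 8.01 and 7.15 in vehicle kidneys and at 6.19, 6.15, 6.22 and 5.95 at the dose, a change of −1.36 (SE 0.14) with no overlap. Prc1, which bundles the midzone microtubules, was at 7.04, 7.39, 7.29, 7.84 and 7.19 in vehicle and at 6.30, 5.41, 5.76 and 5.79 at the dose (−1.53, SE 0.18, adjusted p 4.72e-05). All dosed kidneys were below all vehicle kidneys for this gene too. The midzone motor Kif20a changed by −1.42, Cdca3 by −1.24, the cytokinesis regulator Racgap1 by −0.90 and the kinase Aurkb by −0.69. Aurkb was dim, with group means of 4.52 in vehicle and 3.82 at the dose, both under the floor. Birc5, the survivin gene of the same complex, was at −0.40 (interval −0.63 to −0.18, adjusted p 0.0572) and was not called.

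Among the transcription factor, kinases and chromosome proteins of cycling cells, 4 of 5 fell. Mki67, the gene of the proliferation antigen Ki-67, was at 5.78, 6.08, 6.08, 6.11 and 5.73 in vehicle kidneys and at 4.77, 4.18, 4.55 and 4.14 at the dose (−1.54, SE 0.18, adjusted p 3.25e-05). The groups were apart by almost 1 log2 unit. Top2a, the topoisomerase that untangles chromosomes, changed by −1.33, and the kinase Pbk by −1.15. Foxm1, the transcription factor that drives many of the other members, changed by −0.50 (adjusted p 0.00545). Melk, another kinase of this group, was at 6.93 ± 0.51 (SD, n = 5) in vehicle and 7.13 ± 0.39 (n = 4) at the dose, a difference of 0.21 with an interval from −0.35 to 0.77.

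All 3 tested genes of the kinetochore and spindle checkpoint fell: Spc25 by −1.13, Cenpf by −1.06 and the checkpoint kinase Bub1 by −0.98. Bub1b and Ttk, also checkpoint kinases, were too dim to test here, with vehicle kidney means of 4.06 and 4.33. In limma's test of all probe sets, which has no floor, their brightest probe sets were lower. Bub1b changed by −0.53 (adjusted p 0.00206) and Ttk by −0.99 (adjusted p 0.00356), both on dim values. The 3 ubiquitin genes fell as well. Ube2c, the ubiquitin enzyme of the APC/C, changed by −1.01, the activator Cdc20 by −0.74, and Ube2t, a ubiquitin enzyme of DNA crosslink repair, by −0.73.

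Of 6 spindle kinases, motors and microtubule proteins, 4 fell. Kif2c, a motor that takes microtubules apart at the kinetochore, was at 5.09, 5.11, 5.18, 5.22 and 4.80 in vehicle kidneys and at 4.04, 4.14, 4.21 and 3.78 at the dose (−1.04, SE 0.11, adjusted p 2.53e-05). All its dosed values were under the floor. The hyaluronan receptor and spindle protein Hmmr changed by −1.24, Nusap1 by −0.95 and the kinase Aurka by −0.55. Aurka did not pass limma's test of all probe sets (adjusted p 0.0604). Plk1, the polo kinase of mitosis, was at −0.28 (adjusted p 0.199). Kif11, the motor that parts the spindle poles, was at 8.50 ± 0.17 (SD, n = 5) in vehicle and 8.37 ± 0.10 (n = 4) at the dose, with an interval of the difference from −0.35 to 0.10. Its other probe set, at 5.79 in vehicle, changed by −0.05, so neither followed the other spindle genes. Among the other probe sets, those of Ccnb1 (−1.45), Nusap1 (−0.96), Top2a (−0.93) and Racgap1 (−0.69) and 1 of the 4 of Cdc20 (−0.67) fell in limma's test of all probe sets. Those of Hmmr (−0.33), Kif2c (−0.23), Ttk (−0.12) and Foxm1 (−0.11) and the other 3 of Cdc20 (−0.12, 0.01 and 0.04) did not pass, and their vehicle means lay between 2.39 and 3.71, under the floor.

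**Figure D2:**
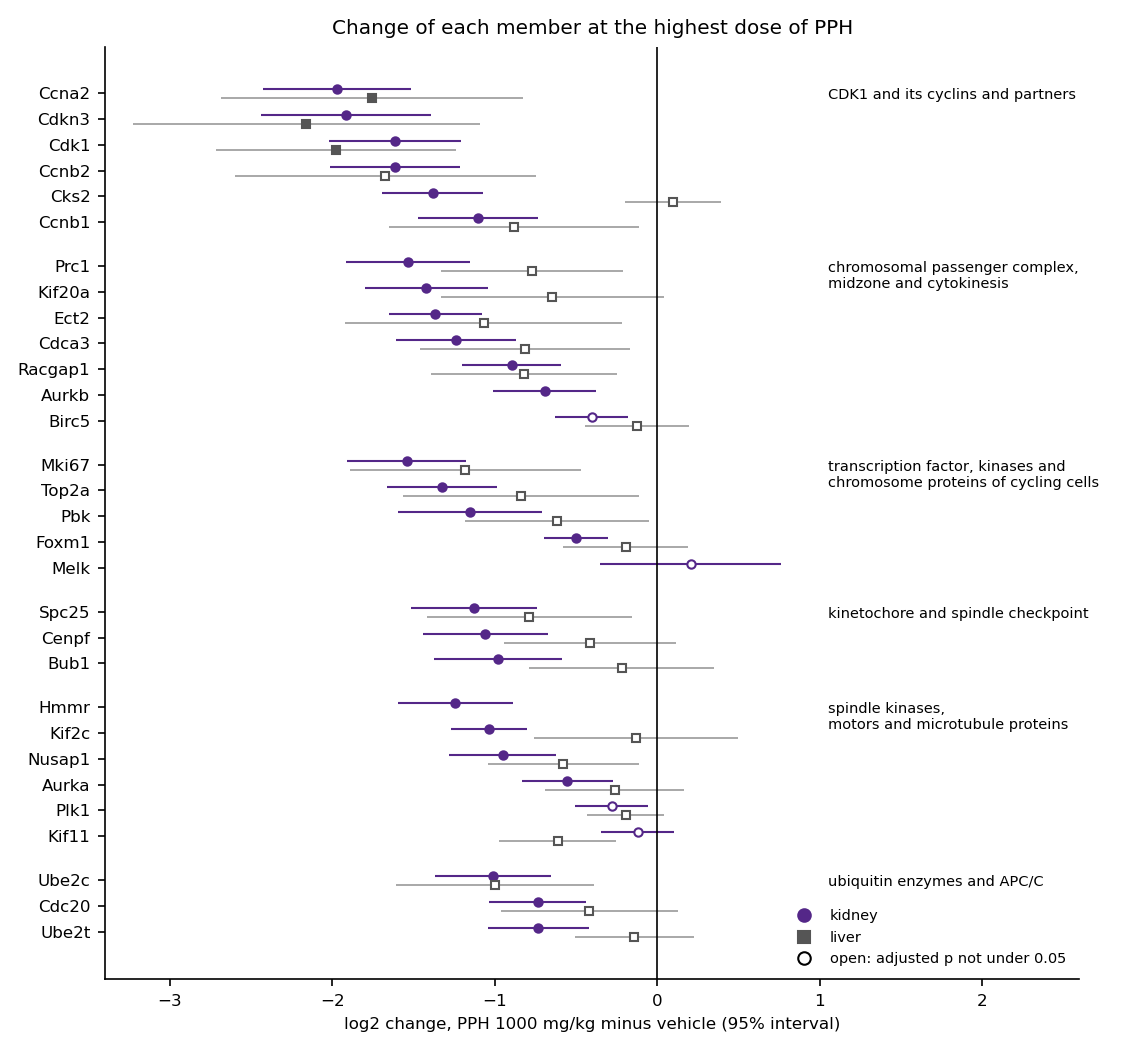
Log2 change of each tested member at 1000 mg/kg PPH against vehicle, with 95% intervals, by role (circles for kidney, squares for liver, filled where called). In kidney 26 of 30 circles are filled and lie between −1.97 and −0.50, and in liver the 3 filled squares are Cdk1, Cdkn3 and Ccna2, while Cks2 sits at 0.10.

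Over the lower doses of PPH the members' mean in kidney was at −0.08, −0.27, −0.42 and −0.56 against vehicle at 1, 10, 100 and 500 mg/kg, and at −1.04 at 1000 mg/kg. No member was called at any of the 4 lower doses, where 0% of all genes were, although 2, 12, 20 and 23 of 30 had an unadjusted p under 0.05 (2.88%, 8.23%, 7.4% and 5.02% of all genes). In the trend over dose ranks 27 of 30 fell, Birc5 being the one added (1.58% of all genes called). Ect2 had group means of 7.49 (vehicle), 7.33, 7.02, 6.73, 6.71 and 6.13 at rising doses, with SDs from 0.12 to 0.32, and a slope of −0.26 per dose rank (SE 0.02, adjusted p 6.89e-06). Cks2 went from 7.58 over 7.30, 7.23, 6.98 and 6.75 to 6.20 (slope −0.25, adjusted p 1.46e-05). Neighbouring groups of both genes overlapped up to 500 mg/kg, and the kidneys at 1000 mg/kg lay below all others. The slopes of Ccna2 (−0.36) and Prc1 (−0.30) had adjusted p 1.46e-05 each. With the 1000 mg/kg kidneys left out, 1 member, Ect2, still passed the trend test.

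**Figure D3:**
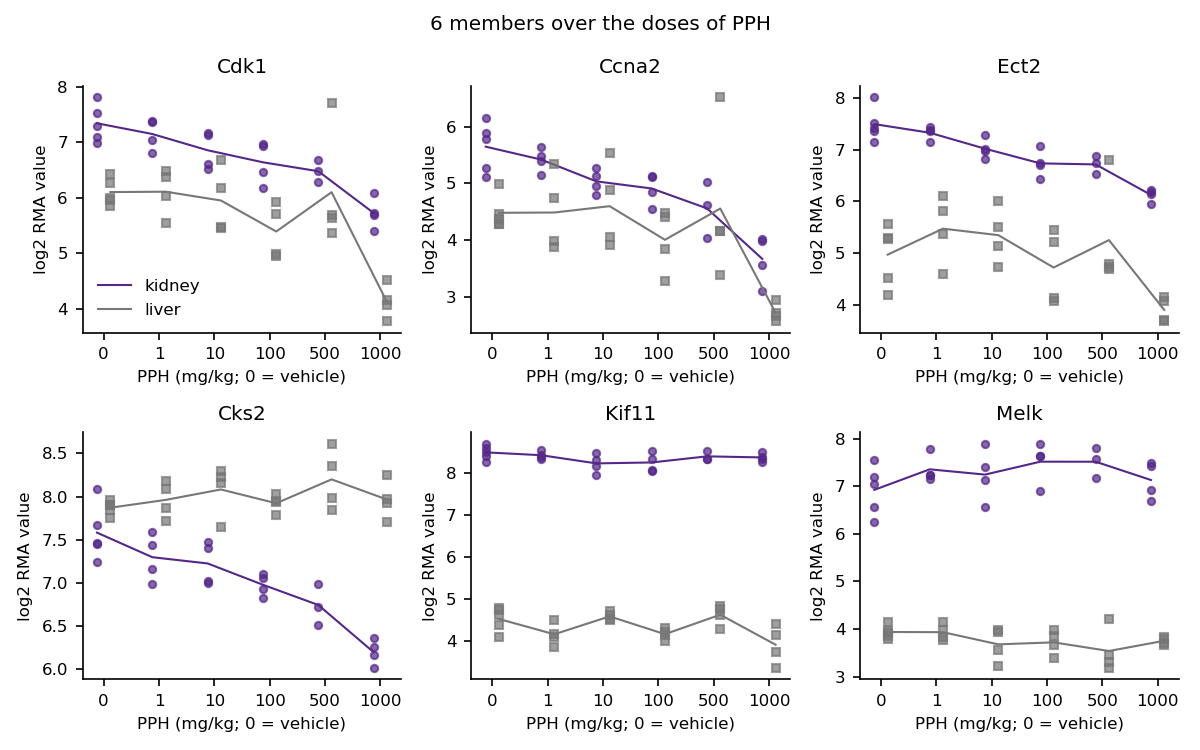
Log2 values of 6 members over the doses of PPH (0 is vehicle), with circles for kidney arrays, squares for liver arrays and lines through the group means. Ect2, Cdk1, Ccna2 and Cks2 step down in kidney, Cks2 does not in liver, and Kif11 and Melk are at 8.50 and 6.93 in vehicle kidneys and at 8.37 and 7.13 at 1000 mg/kg.

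Genes that share the pathway gave smaller shares in the same kidneys. Of 40 tested other mitosis genes 15 fell and none rose at 1000 mg/kg (median −0.41). Arhgap11a, a regulator of cytokinesis, changed by −1.18, the spindle protein Aspm by −0.98, the securin gene Pttg1 by −0.96 and the kinetochore gene Spc24 by −0.90. Of 28 DNA replication genes, 5 fell (median −0.26), among them the helicase subunits Mcm4 (−0.53), Mcm6 (−0.62) and Mcm2 (−0.34) and the polymerase clamp Pcna (−0.32). None of 19 cell cycle regulators was called, and E2f1 had the smallest p (−0.39, adjusted p 0.0894). Of the members with a promoter window, 11 of 12 with a CHR element were called (median −1.37) and 9 of 12 without (median −0.96).

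Some markers of other cells moved beside these genes. Of the markers of hepatocytes Cyp2e1 (0.76) and Pck1 rose, both also made by tubule cells, and of the erythroid markers Tfrc. Of 9 macrophage markers Adgre1 fell (−0.80, adjusted p 0.0204), and the mean of the 9 was between 7.06 and 7.21 in vehicle and between 6.77 and 6.97 at 1000 mg/kg, without overlap. With that mean as a covariate, an alternative chosen after the values were seen, 10 of the 30 members were called, all of them lower, and 20 of all genes were called against 2.03% without it; its part in the result was not tested further. The mean of 8 proximal tubule markers was between 10.93 and 11.11 in vehicle and between 10.85 and 11.03 at the dose, and the 3′ minus 5′ beta-actin signal, a sign of RNA length, between 2.34 and 3.07 and between 2.37 and 2.54. With the floor raised to the 60th percentile, 6.13, 14 of 17 members tested were called. Leaving out single arrays of these 2 groups left between 23 and 27 called.

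In liver PPH at 1000 mg/kg lowered 3 of 27 tested members, all of the CDK1 group (1.75% of all genes called). Called or not, 26 of the 27 were lower than in vehicle, as were 42.1% of all tested genes. Cdk1 was at 5.97, 6.42, 5.86, 6.27 and 6.00 in the vehicle livers and at 4.51, 4.16, 3.77 and 4.06 at the dose (−1.98, SE 0.36, adjusted p 0.00505). Cdkn3 was at 5.69, 6.80, 5.03, 6.65 and 6.51 in vehicle and at 3.90, 3.98, 4.30 and 3.72 at the dose (−2.16, SE 0.52, adjusted p 0.0307). Ccna2 was at 4.29, 5.00, 4.29, 4.38 and 4.46 in vehicle and at 2.95, 2.67, 2.71 and 2.58 at the dose (−1.76, SE 0.45, adjusted p 0.0448). No dosed liver reached a vehicle liver for any of the 3. The dosed values of all 3 lay under the liver floor of 4.69, and so did 4 of the 5 vehicle values of Ccna2. In all, 17 of the 27 members had a dosed mean under the floor and 5 a vehicle mean under it. The groups did not overlap for 14 of 27 members, as was so for 1.84% of all genes. Ccna2 was not called when any 1 of the 9 arrays was left out, and Cdkn3 was not called in 7 of those 9 fits. Cdk1 was called in each. In limma's test of all probe sets Cdk1 passed (adjusted p 0.00856), while Cdkn3 (adjusted p 0.0613) and Ccna2 (adjusted p 0.0871) did not.

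The 4 livers at 1000 mg/kg had the lowest member means of all liver arrays, between 4.59 and 4.68, against 5.14 to 5.58 in vehicle. At 1, 10, 100 and 500 mg/kg the mean was at 0.02, 0.10, −0.23 and 0.06 against vehicle and no member was called (0%, 0.00882%, 0% and 0.0882% of all genes); 1, 0, 1 and 1 of 27 had an unadjusted p under 0.05 (10.6%, 10.1%, 10.4% and 12% of all genes). At 500 mg/kg 1 rat stood apart, with a member mean of 6.54 where the other 3 had 5.14, 4.91 and 5.06. Its Cdk1 was at 7.71 against 5.37, 5.63 and 5.70 in those 3, and its Ccna2 at 6.52 against 4.17, 3.39 and 4.16. Without that rat the mean change at 500 mg/kg was −0.31 rather than 0.06. In the dose trend Cdk1 (−0.30 per rank, adjusted p 0.016) and Cdkn3 (−0.37, adjusted p 0.0369) fell (1.32% of all genes), and without that rat the trend called 11 members. Its kidney was not analysed here. With 1 array left out at a time, Cdk1 passed the trend in 24 of 25 fits and Cdkn3 in 12.

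Of 35 other mitosis genes in these livers Zwint, a kinetochore gene, rose (0.52, adjusted p 0.0119) and none was called lower. The mean of the 38 other mitosis genes that passed the filter over all liver arrays was nevertheless lower at the dose. It was between 5.57 and 5.74 in vehicle and between 5.355 and 5.42 at 1000 mg/kg, without overlap. Of 19 cell cycle regulators Ccnd1, the cyclin that starts the cycle, fell from 9.63 to 8.01 (−1.62, adjusted p 0.00151), and none of 30 DNA replication genes was called. The mean of 10 macrophage markers was between 8.97 and 9.25 in vehicle and 8.86 and 9.07 at the dose. With it as a covariate Cdk1 was at −2.01 (adjusted p 0.0178) and still called, while Cdkn3 (−2.27, adjusted p 0.0617) and Ccna2 (−1.75, adjusted p 0.108) did not pass; its part was not tested further.

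MCHM at 500 mg/kg lowered 2 of 26 tested members in liver (0.512% of all genes called). Called or not, all 26 were lower than in vehicle, as were 48.2% of all tested genes. Nusap1, which binds spindle microtubules, was at 6.42, 6.29, 6.34, 6.32 and 6.83 in the vehicle livers and at 5.49, 5.62, 5.84 and 5.99 at the dose (−0.70, SE 0.16, adjusted p 0.0333). Ube2t was at 4.71, 4.72, 4.92, 4.64 and 5.11 in vehicle and at 4.00, 4.24, 4.15 and 4.33 at the dose (−0.64, SE 0.13, adjusted p 0.0257). Neither overlapped between groups, and all dosed values of Ube2t were under the floor. Cdkn3 (−1.09), Mki67 (−0.99) and Cdk1 (−0.97) had larger differences that did not pass, with adjusted p 0.135, 0.1 and 0.0823. In all, 5 members did not overlap between the groups, as was so for 2.86% of all genes, and 18 of 26 had an unadjusted p under 0.05 (13.4% of all genes). The second probe set of Nusap1 changed by −0.55 and did not pass limma's test of all probe sets (adjusted p 0.257). In that test the kept probe sets of Nusap1 (adjusted p 0.062) and Ube2t (adjusted p 0.0542) did not pass either. When 1 of the 9 arrays was left out, Nusap1 was called in 2 of the 9 fits and Ube2t in 5.

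The member mean in liver was at −0.12, −0.13, −0.30, −0.29, −0.37 and −0.49 against vehicle from 0.1 to 500 mg/kg of MCHM. The vehicle livers lay between 5.07 and 5.82 and those at 500 mg/kg between 4.89 and 5.02. No member was called below 500 mg/kg (0% of all genes up to 100 mg/kg and 0.0265% at 300 mg/kg), while 1, 2, 11, 6 and 14 of 26 had an unadjusted p under 0.05 (4.2%, 5.7%, 6.26%, 3.81% and 7.69% of all genes). In the trend Nusap1 (−0.10 per rank, adjusted p 0.0131), Cdkn3 (−0.22, adjusted p 0.0132), Mki67 (−0.16, adjusted p 0.0255), Kif20a (−0.10, adjusted p 0.0306) and Cdk1 (−0.14, adjusted p 0.037) fell (2.38% of all genes), and without the highest dose none did. Nusap1 stepped from 6.44 over 6.15, 6.26, 6.09, 5.94 and 5.99 to 5.74, with SDs between 0.14 and 0.45, and neighbouring doses overlapped.

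Of the other lists in the MCHM livers, no other mitosis gene, DNA replication gene or cell cycle regulator was called at 500 mg/kg. The mean of 38 other mitosis genes was still lower there, between 5.565 and 5.88 in vehicle and between 5.495 and 5.54 at the dose, without overlap. That of 32 DNA replication genes overlapped, between 6.17 and 6.33 and between 6.16 and 6.20. Over the dose ranks 3 of 35 other mitosis genes fell, the stathmin gene Stmn1 (−0.07) and the condensin subunits Smc4 (−0.06) and Smc2 (−0.08), as did Ccnd1 (−0.14). Markers of other cells moved over the ranks as well. The macrophage markers Csf1r (−0.04) and Adgre1 (−0.07) fell, 2 of 10, and so did 3 of 8 lymphocyte markers, Jchain, Ccl5 and Ptprc. Among 9 hepatocyte markers Tat rose and Apoa1 fell. The mean of 10 macrophage markers was between 8.88 and 9.08 in vehicle livers and 8.61 and 9.02 at 500 mg/kg. With it as a covariate neither member was called at 500 mg/kg (Ube2t −0.65, adjusted p 0.0842, and Nusap1 −0.64, adjusted p 0.14), and 15 of all genes were called in place of 58. The part of these cells in the result was not tested further.

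Crude MCHM called no member in liver at any dose. At 500 mg/kg 12 of 29 were higher and 17 lower, where 46.7% of all genes were lower, and the mean was −0.02. Of the 29, 0 had an unadjusted p under 0.05 (13.4% of all genes had, and limma called 0.675%). The genes with the smallest p were Foxm1, from 5.52 ± 0.10 (SD, n = 4) to 5.36 ± 0.10 (n = 4), Pbk, from 4.78 ± 0.49 to 5.08 ± 0.23, and Prc1, from 6.21 ± 0.63 to 6.48 ± 0.21. At 300 mg/kg 1.01% of all genes were called, and at lower doses 0%, again with no member; 2 of 29 at 0.1 mg/kg and 1 at 300 mg/kg had an unadjusted p under 0.05 (6.17% and 14.1% of all genes). The trend also called none (1.91% of all genes), and no member was lower in all dosed than in all vehicle livers at 500 mg/kg (3.12% of all genes). The vehicle livers spread widely, with member means of 4.797, 5.72, 5.51 and 6.04. Without the lowest of them the mean change at 500 mg/kg was −0.26 and Prc1 was at −0.03 rather than 0.27, and over all fits with 1 array left out the mean change ran up to 0.16.

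In kidney all 30 members were lower at 500 mg/kg crude MCHM than in vehicle (mean −0.34 over 31), as were 62.4% of all tested genes, and none was called (0% of all genes, with 5 of 30 members and 12.5% of all genes at an unadjusted p under 0.05 in limma). Birc5 went from 6.03 ± 0.22 (SD, n = 3) to 5.54 ± 0.10 (n = 3), Hmmr from 5.33 ± 0.41 to 4.79 ± 0.09 and Aurka from 5.46 ± 0.17 to 5.11 ± 0.25. Of the 30, 2 did not overlap between groups, against 13.1% of all genes. The same vehicle rat was lowest in kidney, with a member mean of 5.64 where the other vehicle kidneys had 6.50 and 6.37, and without it the mean change was −0.60 and 4 members were called at 500 mg/kg. With other arrays left out the mean change was as small as −0.17. The trend called none (0% of all genes), and neither did any lower dose (0% of all genes), where 3, 2, 1, 1 and 1 of 30 members had an unadjusted p under 0.05 from 0.1 to 300 mg/kg (5.3%, 7.25%, 4.26%, 3.19% and 3.86% of all genes).

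MCHM at 500 mg/kg left 29 of 30 members lower in kidney (mean −0.37 over 31), as were 44.1% of all tested genes. None of the members was called (0.0177% of all genes, with 21 of 30 members and 9.28% of all genes at an unadjusted p under 0.05). Cdkn3 went from 6.77 ± 0.20 (SD, n = 5) to 5.77 ± 0.19 (n = 4), adjusted p 0.0937. Ccnb2 went from 6.40 ± 0.23 to 5.76 ± 0.11, adjusted p 0.113, and Ect2 from 6.86 ± 0.19 to 6.35 ± 0.13, adjusted p 0.14. The groups did not overlap for 17 of the 30, as was so for 1.14% of all genes. The course was not even over the doses: the member mean was at 0.15, 0.08, 0.09, 0.30, −0.11 and −0.37 against vehicle from 0.1 to 500 mg/kg. At 100 mg/kg all 30 tested members were higher than in vehicle, where 49.2% of all genes were lower. Of the 30, 12 had an unadjusted p under 0.05 (4.56% of all genes), and none was called. The same held at every dose below 500 mg/kg (0% of all genes), with 2, 1, 1 and 2 of 30 at an unadjusted p under 0.05 at 0.1, 1, 10 and 300 mg/kg (4.92%, 8.93%, 6.2% and 5.59% of all genes). In the trend Cdkn3 (−0.15 per rank, adjusted p 0.0248) and Ccnb2 (−0.11, adjusted p 0.0475) fell (0.124% of all genes). Cdkn3 was near 6.8 up to 100 mg/kg (group means 6.69 to 6.88), at 6.23 at 300 mg/kg and at 5.77 at 500 mg/kg. Without the vehicle kidney of rat 4, the one high in Alb, neither trend passed, and 17 of the 28 fits that left out 1 array changed the count of called members by over 1.5 times.

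**Figure D4:**
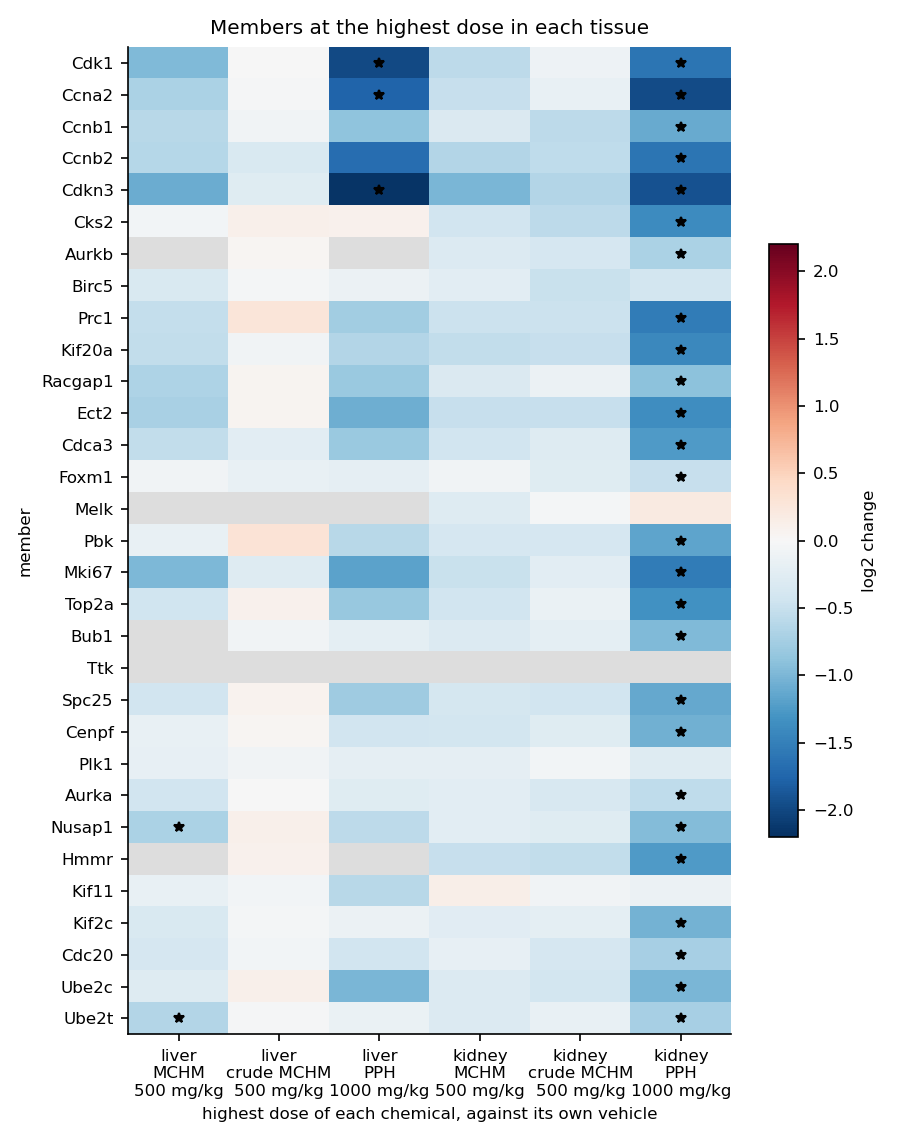
Log2 change of 31 members (all but Bub1b), by tissue and chemical, between vehicle and the top dose, in blue for lower and red for higher, with stars where called and grey where not tested. Stars mark 26 members in the kidney at 1000 mg/kg PPH, 3 in its liver and 2 in the liver of the MCHM rats.

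The responses to the chemicals were compared at 14 matched pairs of doses in each tissue, each as the difference of both changes from vehicle. No member passed in any of the 28, where between 0% and 0.0956% of all genes were called: 0.0086% for liver MCHM against PPH at 10 mg/kg, 0.0344% for the same pair at 500 mg/kg, 0.0261% for kidney MCHM against crude MCHM at 500 mg/kg, 0.0956% for kidney crude MCHM against PPH at 500 mg/kg, and 0% in the rest. At 500 mg/kg in liver Ube2t was 0.85 lower with MCHM than with PPH (−0.85, interval −1.31 to −0.39, adjusted p 0.145) and 9 of 29 members had an unadjusted p under 0.05 (9.91% of all genes). At 100 mg/kg in kidney 30 of 31 members were higher with MCHM than with PPH, where 43.9% of all genes were lower, and 29 had an unadjusted p under 0.05 (8.19% of all genes), the largest being Ccnb1 (1.25, adjusted p 0.0919). At 500 mg/kg in kidney Cdk1 was higher with crude MCHM than with PPH by 0.75 (interval 0.10 to 1.40, adjusted p 0.417) and Ccna2 by 0.93 (interval 0.11 to 1.74, adjusted p 0.428). MCHM and crude MCHM at 500 mg/kg differed by −0.96 for Cdk1 in liver (interval −2.07 to 0.15) and by −0.47 in kidney (interval −1.09 to 0.16). Both intervals hold 0 and reach past −1, so neither likeness nor difference is shown.

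The vehicle groups themselves differed, which limits any comparison of levels between the chemical sets. In liver 2 of 29 members, Cks2 (8.33 against 7.87) and Ube2t (4.82 against 4.399), were higher in the MCHM than in the PPH vehicle group, with 17.4% of all genes called. In kidney 5 of 31 members, Ect2 (6.86 against 7.49), Cks2, Kif11, Foxm1 and Ttk, were lower in the MCHM than in the PPH vehicle group (31.5% of all genes). Birc5, Foxm1 and Ttk, 3 of 31, were lower in the MCHM than in the crude MCHM vehicle group (22.3%). These shares of the members lie under those of all genes, so nothing is read from them about the members. No member was called between the MCHM and crude MCHM vehicle groups in liver (11.4%) or between crude MCHM and PPH in either tissue (2.55% in liver, 1.76% in kidney), with 1, 0 and 1 members at an unadjusted p under 0.05 (25.4%, 18.7% and 11.5% of all genes). The 3′ minus 5′ beta-actin signal moved with the sets, between 1.26 and 1.31 in the MCHM and between 2.34 and 3.07 in the PPH vehicle kidneys. In the vehicle livers it was the other way round, between 1.76 and 2.095 for MCHM and between 1.11 and 1.27 for PPH. The chemical set and this signal cannot be told apart in those kidneys or livers.

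Among the members 1 differed between the tissues in its response. Cks2 at 1000 mg/kg PPH was at 7.85, 7.75, 7.90, 7.96 and 7.90 in vehicle livers and at 8.25, 7.93, 7.98 and 7.71 at the dose, which overlapped, while it fell in kidney. The difference of the responses was 1.48 (SE 0.21, adjusted p 8.39e-05), with 0.748% of all genes called. It held with each array left out (1.35 to 1.56) and under every alternative run, from 1.39 to 1.51. For Cdk1 the liver response minus the kidney response was −0.36 (interval −1.22 to 0.49) and for Ccna2 0.22 (interval −0.83 to 1.27). No member passed for MCHM at 500 mg/kg (0.0759% of all genes, 2 of 30 members and 8.18% of all genes at an unadjusted p under 0.05 in limma) or crude MCHM (0.0587%, with 1 of 30 and 12.7%).

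Levels in vehicle rats were compared between liver and kidney with the same probe set in both, for 30 members. In the PPH vehicle rats 20 members were called lower in liver and 1, Plk1, higher, where 77.7% of all genes were called. In the MCHM vehicle rats 19 were lower and 2, Cks2 and Ube2t, higher (76.9%), and in the crude MCHM vehicle rats 10 lower and 2, Cks2 and Plk1, higher (75%). These shares of the members lie under those of all genes, so nothing is read from them about the members, and with the beta-actin signal as a covariate 4, 7 and 7 members were called. In the PPH set Ect2 was at 4.97 in liver and 7.49 in kidney, Cdk1 at 6.10 and 7.34, Melk at 3.94 and 6.93, and Kif11 at 4.49 and 8.50. The other probe set of Kif11 had a smaller gap, 4.525 in liver and 5.79 in kidney.

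The members varied together from rat to rat within groups. As deviations from group means, a member's correlation with the mean of the other members had a median of 0.83 over 81 liver arrays (29 members) and 0.78 over 69 kidney arrays (31 members), against medians of 0.01 and 0.02 over all tested genes with the members' mean. It was over 0.5 for 25 of 29 members in liver and 28 of 31 in kidney, against 0.525% and 0.522% of all tested genes. These correlations are descriptions over arrays that share groups and normalization. Kif11 (0.12 in liver, 0.10 in kidney), Melk (0.09 in kidney), Foxm1 (0.23 and 0.38), Plk1 in liver (0.35) and Ube2t in liver (0.47) were the exceptions. The spread of the members within groups was wide, with a median SD of 0.40 in liver and 0.27 in kidney, against 0.16 and 0.15 over all tested genes.

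Liver and kidney of the same rat also deviated alike. Over 65 rats with both tissues, the deviation of the member mean from its group mean correlated at r = 0.49 (rho = 0.45), and at r = 0.46 without the 2 rats farthest out in liver. Within the sets r was 0.53 for MCHM (27 rats), 0.63 for crude MCHM (16 rats) and 0.31 for PPH (22 rats). The lowest rat was the same in both tissues, the crude MCHM vehicle rat named above, with −0.72 in liver and −0.53 in kidney.

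**Figure D5:**
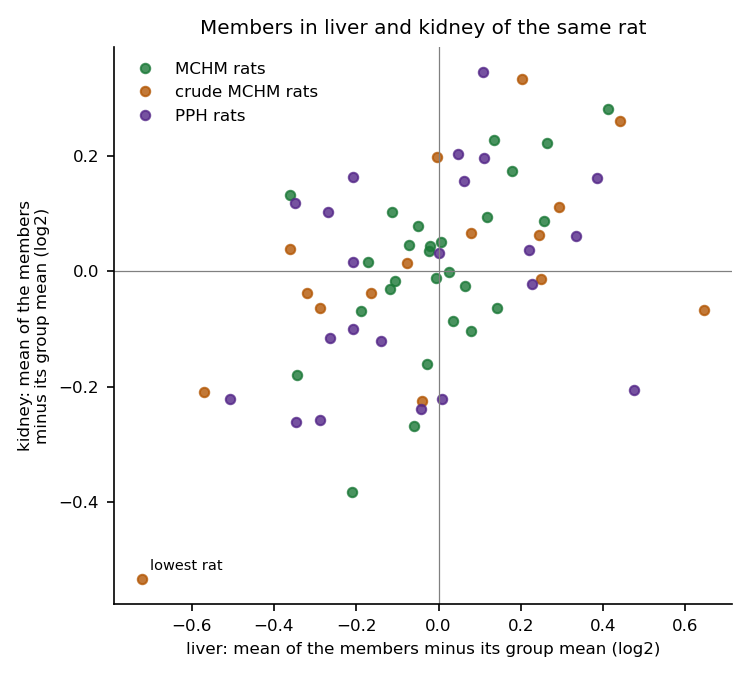
Deviation of the member mean from its group mean (log2) in the liver (x axis) and kidney (y axis) of the same rat, 65 rats coloured by chemical set. The lowest rat, a crude MCHM vehicle rat, lies at −0.72 and −0.53, and r over all rats is 0.49.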

How the data were processed

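Expression was measured in total RNA of liver and kidney on Affymetrix rat arrays with 1 colour. The deposited log2 values were made with RMA, per the submitters' processing notes; its version, and whether the sets were processed together, is not given in the sources used here. The values were used as deposited. Of 31099 probe sets, 20832 had 1 gene symbol in the array annotation, 436 several and 9831 none, and the last 2 kinds were not used.

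For each gene the brightest probe set of the tissue was kept, and tested if at least 3 arrays of the fit exceeded the tissue's 40th percentile. Fits used limma 3.58.1 (lmFit and eBayes) in R 4.3.3. There was 1 fit per tissue and chemical, two-sided, with Benjamini-Hochberg adjustment over all tested genes. The trend is a linear contrast on dose rank. Chemicals were compared in 1 fit per tissue, and tissues in 1 fit per chemical. Intervals are 95% intervals. The array means use members that passed the filter over all arrays of the tissue and have no p. The array left out had a median r of 0.401 with the other kidneys, and 0.952 after a move by 1 position, against at least 0.986 for the arrays used. Replicate numbers pair liver and kidney of a rat; the consensus correlation within rats was 0.085 (MCHM), 0.053 (crude MCHM) and 0.087 (PPH). Promoters are from RefSeq, and symbols were matched by name.

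The members and lists were chosen with earlier results of these data known. Members called at a highest dose are given array by array, at most the 8 with the smallest adjusted p. Where none was called, the 3 with the smallest p are given by mean and SD. For trends, differences and other lists the rule was at most 4. Further genes, such as Cdk1 in the liver MCHM trend and Ttk between kidney vehicle groups, were named after their values were seen. Members named without a call in the differences between chemicals and tissues also lie outside this rule. The fit was tested on simulated data with known changes. Alternatives were no filter, a floor at the 60th percentile, the mean of all probe sets, a further quantile normalization, array weights, a beta-actin covariate, all sets in 1 fit, each array left out, and the rat as a block.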

Additional observations from a re-analysis of the deposited data

Results flagged for a closer look

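In groups of 4 to 10 arrays, the gap of the highest or lowest array to its neighbour was set against the range of the group. Chance passes about 1 in 20 groups. Of 30 groups 1 passed for the member mean, in 1 liver at 500 mg/kg PPH, at 6.538. Of 38 tests of named members 5 passed. Nusap1 was high in 1 MCHM vehicle liver (rat 7, 6.827), Foxm1 (5.503) and Pbk (5.425) each in 1 liver at 500 mg/kg crude MCHM, and Ccna2 in 1 PPH vehicle liver (4.998). Ccnb2 was low in 1 PPH vehicle kidney (6.335). Cks2 differed between liver and kidney in its response to 1000 mg/kg PPH, by 1.478 (liver minus kidney) in the fit of both tissues.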

How the results depend on the processing

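In kidney at 1000 mg/kg PPH every call was a fall under every alternative run. The count was 14 with the higher floor (17 members tested) and 10 with the macrophage covariate, and that of the trend 14 with the higher floor and 1 without the highest dose. For liver PPH the mean change at 1000 mg/kg was −0.87 with the higher floor, the count at 1000 mg/kg 7 with all sets in 1 fit and 1 with the macrophage covariate, and the trend count 5 with all sets in 1 fit and 0 with the beta-actin covariate or without the highest dose. For liver MCHM the count at 500 mg/kg was 1 with the higher floor, 1 with all sets in 1 fit and 0 with the macrophage covariate, and that of the trend 3, 2 and, without the highest dose, 0. For kidney MCHM the count at 500 mg/kg was 2 with array weights, and that of the trend 1 without a filter, 1 with all sets in 1 fit and 0 with the beta-actin covariate, without the highest dose or with the left-out array put back. For kidney crude MCHM at 500 mg/kg it was 1 with array weights and 1 with all sets in 1 fit. Array weights also gave 1 for the tissue difference of crude MCHM and 1 for kidney MCHM against PPH at 100 mg/kg.

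Between vehicle groups the liver count for MCHM against PPH was 1 without a filter, 1 with the higher floor, 1 with array weights and 0 with the beta-actin covariate, and for MCHM against crude MCHM 1 with the higher floor and 1 with array weights. In kidney, MCHM against crude MCHM gave 0 with the higher floor, 1 with the mean of all probe sets, 6 with array weights and 0 with the beta-actin covariate, and MCHM against PPH gave 3, 2 (where Kif11 was at 0.066 in place of −0.342) and, with the covariate, 0. Between tissues in vehicle rats the beta-actin covariate left 7 (MCHM), 7 (crude MCHM) and 4 (PPH). The cause of these changes was not tested.

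With the rat as a block, over rats with both tissues, 22 members were called between the tissues of vehicle rats for MCHM, 17 for crude MCHM and 26 for PPH; the block changed no call of the tissue responses, and Cks2 was at 1.509.

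Leaving out 1 array at a time gave counts of 0 to 2 for liver MCHM at 500 mg/kg and 2 to 8 for its trend, 1 to 2 for liver PPH at 1000 mg/kg and 0 to 11 for its trend, 0 to 3 for the kidney MCHM trend, 0 to 2 for kidney PPH at 100 mg/kg, 0 to 1 for kidney crude MCHM at 0.1 mg/kg and 0 to 4 at 500 mg/kg. For kidney MCHM against crude MCHM it gave 0 to 4 at 0.1 mg/kg, 0 to 1 at 1 mg/kg and 0 to 1 at 500 mg/kg, and for kidney MCHM against PPH 0 to 1 at 100 mg/kg. For the tissue response of crude MCHM it gave 0 to 1. For vehicle groups it gave 2 to 6 (kidney MCHM against PPH), 0 to 11 (kidney MCHM against crude MCHM), 1 to 2 (liver MCHM against PPH) and 0 to 1 (liver MCHM against crude MCHM). Prc1 in liver crude MCHM at 500 mg/kg ranged from −0.027 to 0.468. Members under the floor have changes that are least certain, and groups of 2 to 5 arrays limit what could be called.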
